A study of Mus musculus with 6 samples.

Results

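The Btg and Tob genes, the Gadd45 genes and the cyclin G genes encode small proteins that slow or stop cell division or answer to stress, and their transcripts were followed in mouse myoblasts treated with shRNA against LncMyoD, a long RNA that encodes no protein. The members are Btg1, Btg2, Btg3, Tob1, Tob2, Gadd45a, Gadd45b, Gadd45g, Ccng1 and Ccng2, chosen by symbol. Every probe set whose platform annotation gives exactly 1 of these symbols was taken, which gave 22 of the 45101 probe sets on the array and covered 9 of the 10 genes. The only probe set that names Btg3 carries a second symbol as well, so Btg3 is not analysed here. One Tob2 probe set, 1431776_at, was too dim for the filter on low signals, and the other 21 were tested.

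RNA from 6 samples of primary myoblasts, the precursor cells of skeletal muscle, was hybridised to 1 Affymetrix mouse array each. In 3 samples the cells were treated with LncMyoD shRNA, delivered by lentivirus in a Tet-pLKO-puro vector, and 3 samples are labelled as controls. All 6 carry an age label of 21 days. The labels do not give the strain, the control treatment, whether an inducer was added, how many shRNA sequences were used, or whether the cells were in growth or differentiation medium.

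The study's question, as its title gives it, is how LncMyoD acts on muscle differentiation. Btg and Tob proteins share an antiproliferative domain that binds the CCR4-NOT complex, which shortens the poly(A) tails of mRNAs. Gadd45 proteins bind the kinase Map3k4 and the replication clamp Pcna and are induced by stress, growth arrest or cytokines. Cyclin G proteins are atypical cyclins that bind subunits of the phosphatase PP2A. Btg2, Gadd45a and Ccng1 are textbook targets of the transcription factor p53, and Ccng2 is induced by FoxO factors when growth signals are withdrawn.

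The promoter windows of 4 member genes with called probe sets are shown. They are Btg2 and Tob2, which rose, Btg1, where 1 probe set rose, and Gadd45b, where 2 probe sets fell. The windows of Tob1 and Ccng1, each with a probe set called higher by a small difference, are not printed. The sequences are RefSeq's, build GRCm38.p6, from 250 bases before to 50 bases after the annotated start, read along the strand of the gene. They lie at chr1:134079106-134079405 (minus strand) for Btg2, chr15:81858277-81858576 (minus strand) for Tob2, chr10:96616751-96617050 (plus strand) for Btg1 and chr10:80929841-80930140 (plus strand) for Gadd45b. Capitals mark matches to the motifs searched, on either strand.
Btg2: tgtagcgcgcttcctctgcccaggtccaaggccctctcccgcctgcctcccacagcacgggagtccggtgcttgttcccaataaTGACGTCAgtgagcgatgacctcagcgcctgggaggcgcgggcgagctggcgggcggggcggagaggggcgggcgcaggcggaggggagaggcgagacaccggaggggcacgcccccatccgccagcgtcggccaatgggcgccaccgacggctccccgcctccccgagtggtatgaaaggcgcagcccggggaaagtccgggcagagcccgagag
Tob2: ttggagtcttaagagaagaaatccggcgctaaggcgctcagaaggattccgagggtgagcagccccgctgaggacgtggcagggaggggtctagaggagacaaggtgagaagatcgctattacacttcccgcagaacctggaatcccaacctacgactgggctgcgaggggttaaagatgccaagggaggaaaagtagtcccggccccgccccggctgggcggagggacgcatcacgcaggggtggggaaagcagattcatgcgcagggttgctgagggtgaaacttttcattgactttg
Btg1: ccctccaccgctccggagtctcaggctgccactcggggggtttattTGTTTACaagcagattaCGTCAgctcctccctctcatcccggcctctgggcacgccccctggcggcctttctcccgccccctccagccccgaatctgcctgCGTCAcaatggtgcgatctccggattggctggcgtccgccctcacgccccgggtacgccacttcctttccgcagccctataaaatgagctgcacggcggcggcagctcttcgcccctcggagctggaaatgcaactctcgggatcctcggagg
Gadd45b: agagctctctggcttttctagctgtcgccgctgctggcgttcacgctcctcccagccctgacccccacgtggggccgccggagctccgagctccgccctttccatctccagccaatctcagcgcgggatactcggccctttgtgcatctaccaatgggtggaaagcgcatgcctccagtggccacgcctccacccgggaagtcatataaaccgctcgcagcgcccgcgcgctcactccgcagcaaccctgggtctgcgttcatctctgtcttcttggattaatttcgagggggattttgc

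The motifs were an E-box (CAGCTG), the core of the cyclic AMP response element, CRE (TGACG), a FoxO motif (GTAAACA) and 2 forms of the E2F motif (TTCGCGC and TTGGCGC). The last was a decamer that is only a half-site of the p53 response element, searched without mismatches. The Btg2 window held the CRE core on both strands, overlapping as 1 palindrome of 8 bases that begins at position -166, counted from the annotated start as 0. The core was in 20.8% of all 32851 promoter windows of this length and the full palindrome, added after the Btg2 match was seen, in 1.79%. Btg1 held the core at 2 places and 1 FoxO motif, a motif found in 3.65% of all windows, and Tob1 held the core once. The p53 decamer was found in Gadd45a and Ccng1 and in 8.36% of all windows, and the E-box in Gadd45g and in 16.3%. The E2F forms, present in 1.59% and 2.45% of all windows, were in 0 of the 11 windows of the 10 genes. The Tob2, Gadd45b and Ccng2 windows held none of these letters. In any window, a match or its absence says nothing about whether a factor binds there. The map of matches by distance from the start shows their positions.

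**Figure D1:**
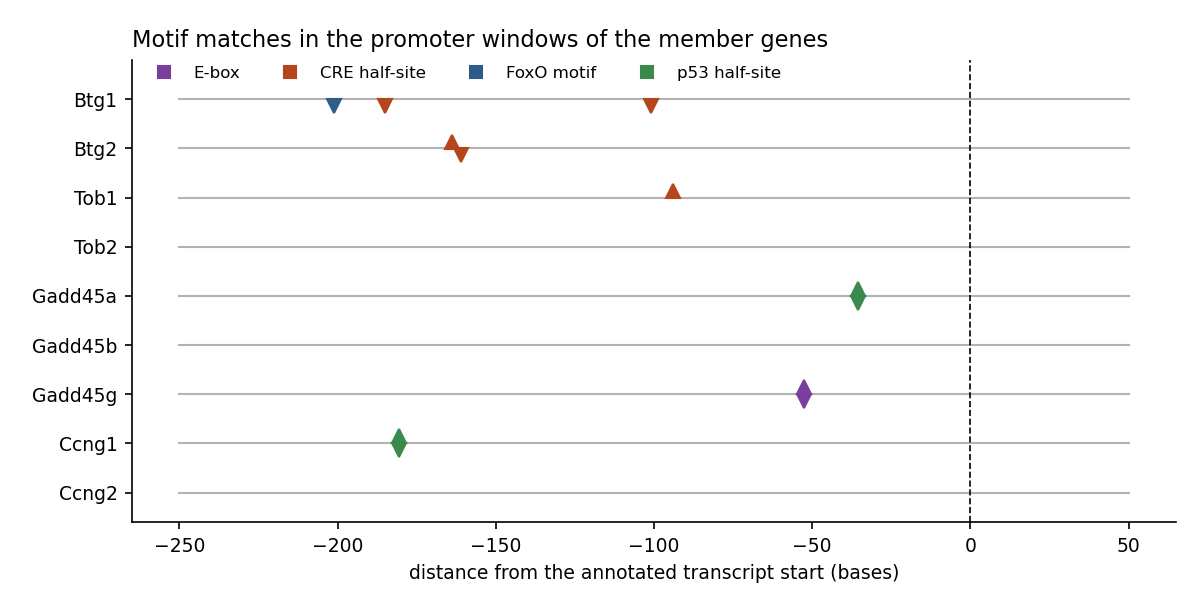
Matches to the searched motifs in the promoter windows of the 9 measured genes, by distance in bases from the annotated transcript start (dashed line). Upward triangles are matches on the gene's strand and downward triangles on the other strand, so a palindrome appears as a pair. Btg2 has the overlapping pair of CRE cores, and Tob2, Gadd45b and Ccng2 have no match.

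Across the 21 tested member probe sets, 9 were higher and 2 lower in shRNA samples and 10 did not pass the threshold, an adjusted p of 0.05 in limma's moderated test over all 27022 probe sets tested. That share, 11 of 21, stands beside 53.9% of all tested probe sets called in either direction, 30.4% higher and 23.5% lower, so the count of calls was near the background. The median size of the difference was 0.15 on the log2 scale among the member probe sets, against 0.21 among all tested. The calls were uneven over the families, where several probe sets can belong to 1 gene. Of 11 Btg and Tob probe sets 8 were higher, of 5 Gadd45 probe sets 2 were lower, and of 5 cyclin G probe sets 1 was higher. In the opposite direction, limma's test called 0 in each of these families, also at an unadjusted p under 0.05. The 8 higher ones included all 4 tested probe sets of Tob2 and both of Btg2, and the 2 lower ones were both Gadd45b's. By brightest probe sets, 4 of the 9 genes were higher and 5 did not pass the threshold, against 35.7% of all 12408 genes higher. The values of the 2 groups were fully apart in 12 of the 21 member probe sets, against 59.5% of all tested. Among the 7 members with a mean log2 signal above 13, 4 were called, against 40.6% of all tested probe sets that bright.

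**Figure D2:**
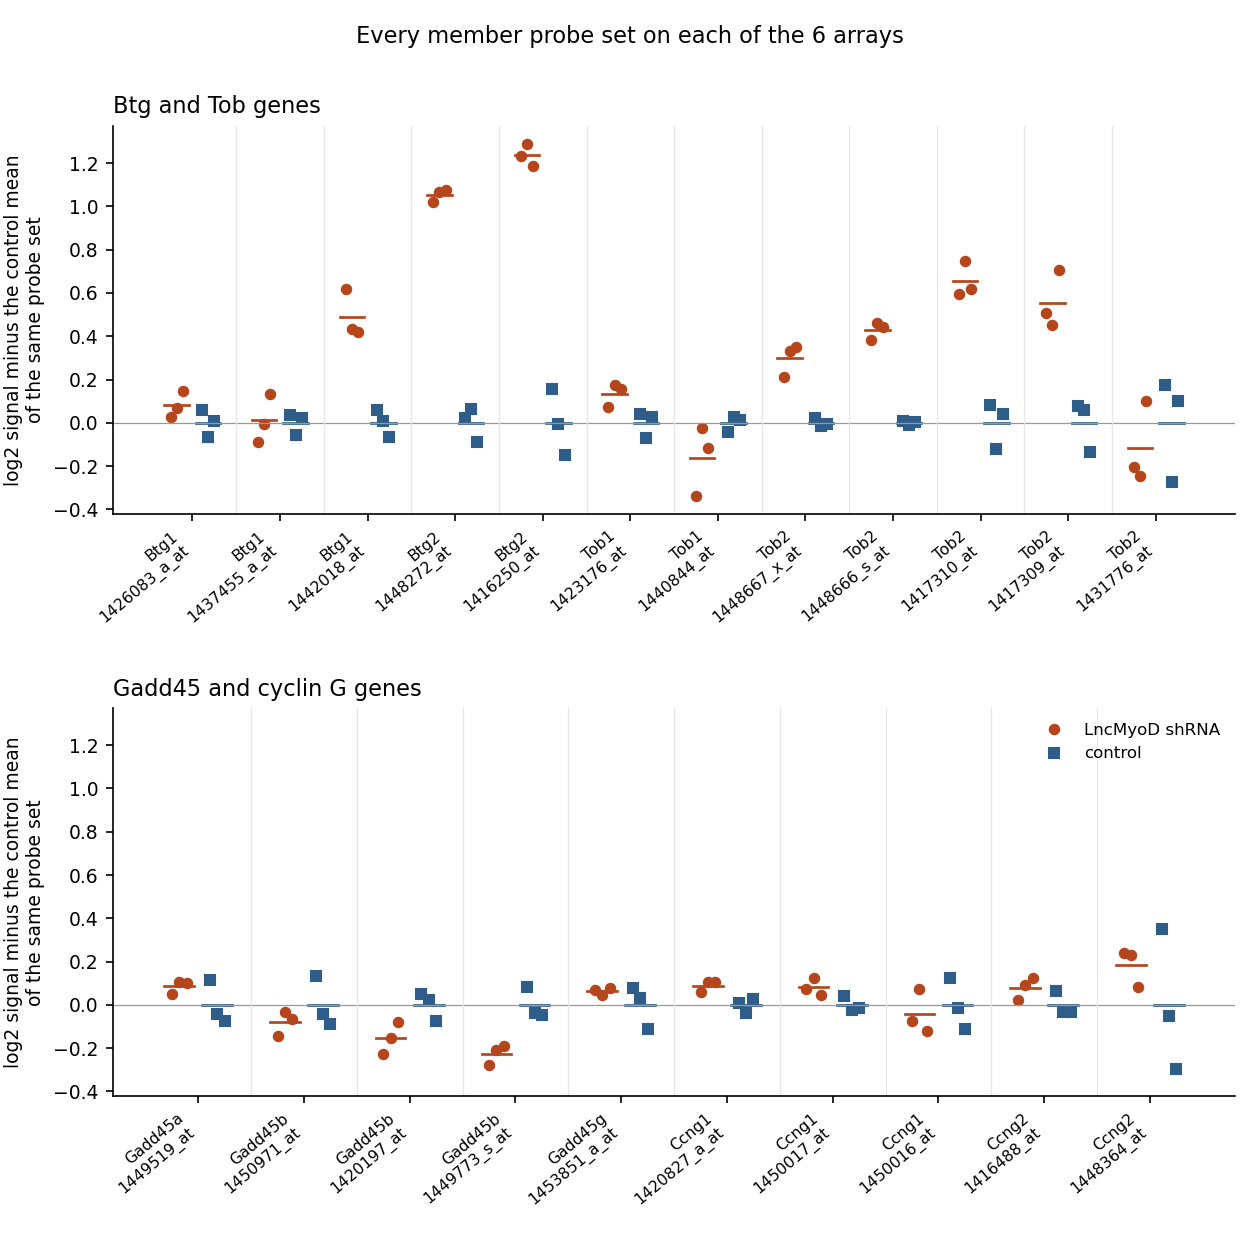
Log2 signal of all 22 member probe sets on each array, as the distance from the mean of the 3 control arrays of the same probe set; circles are LncMyoD shRNA arrays, squares control arrays and bars group means. Both Btg2 probe sets and 4 of the 5 Tob2 probe sets have their shRNA arrays above all control arrays, while most Gadd45 and cyclin G probe sets lie within 0.2 of the control mean.

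Btg2, an antiproliferative protein that is also induced as an immediate-early gene and by p53, showed the largest increase among the members. Its brighter probe set, 1448272_at, read log2 signals of 11.44, 11.49 and 11.50 in shRNA samples, against 10.44, 10.48 and 10.33 in controls. The other, 1416250_at, read 10.50, 10.56 and 10.46 in shRNA samples, against 9.43, 9.27 and 9.12 in controls. On both, every shRNA array lay about a whole log2 unit above every control array. The difference was 1.05 (SE 0.051, 2.08-fold, limma adjusted p = 5.82e-09) on the first and 1.24 (SE 0.075, 2.36-fold, limma adjusted p = 3.22e-08) on the second. Among the 12408 genes, each taken by its brightest probe set, 3.77% passed the threshold with a change of over 2-fold, Btg2 as the 1 member gene among them, and 1.87% rose more than Btg2. Both calls held in all 14 alternatives, with differences of 0.99 to 1.09 and of 1.16 to 1.31.

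The 3 genes whose array profile lay closest to that of Btg2 were Xrcc1, a scaffold of DNA single-strand break repair, Apaf1, which forms the apoptosome, and Rbl1, a relative of the retinoblastoma protein. Likeness was the root mean square distance over the 6 arrays after each gene was set to 0 at its control mean, and it was 0.025, 0.042 and 0.042 log2 units. This measure favours any gene that rose by about as much, as these did (1.06, 1.01 and 1.07).

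Tob2, which like Tob1 also binds the cytoplasmic poly(A)-binding protein, rose on all 4 of its tested probe sets. Probe set 1417310_at read 12.41, 12.56 and 12.44 in shRNA samples, against 11.90, 11.70 and 11.86 in controls, and 1448666_s_at read 13.23, 13.31 and 13.29, against 12.86, 12.84 and 12.85. No shRNA array overlapped a control array on either. The increases were 0.65 (SE 0.056, 1.57-fold, limma adjusted p = 7.61e-07) and 0.43 (SE 0.035, 1.35-fold, limma adjusted p = 4.32e-07). The dimmer 1417309_at, at 9.89, 9.83 and 10.08 in shRNA samples against 9.46, 9.44 and 9.25 in controls, rose by 0.55 (SE 0.081). The smallest increase, 0.30 (SE 0.041), was on 1448667_x_at, whose suffix marks probes open to cross-hybridization (13.30, 13.42 and 13.44 in shRNA samples, against 13.11, 13.07 and 13.09 in controls). All 4 calls held in every alternative that tested them. The fifth probe set, 1431776_at, read 5.73, 5.68 and 6.03 in shRNA samples and 6.10, 5.66 and 6.03 in controls, below the lowest tested mean of 6.50, and the groups overlapped. Without the filter its difference was -0.12 (limma adjusted p = 0.625).

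Btg1, the close relative of Btg2 that is known to act in myoblast growth arrest, gave different readings on its 3 probe sets. The bright 1426083_a_at read 13.18, 13.22 and 13.30 in shRNA samples, against 13.21, 13.09 and 13.16 in controls, a difference of 0.080 with a 95% interval of -0.012 to 0.17 (limma adjusted p = 0.132). The bright 1437455_a_at read 13.01, 13.09 and 13.23, against 13.13, 13.04 and 13.12, a difference of 0.012 (limma adjusted p = 0.861). On both, the groups overlapped. The groups were apart on the third, 1442018_at, at 8.48, 8.30 and 8.28 in shRNA samples against 7.92, 7.87 and 7.80 in controls, and rose by 0.49 (SE 0.093, 1.40-fold, limma adjusted p = 0.000638). It held its call in all 13 alternatives that tested it. The first probe set passed the threshold with quantile normalization (0.091, limma adjusted p = 0.0152) and without control 1 (0.11, 0.0477).

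Tob1, a negative regulator of growth factor signalling that recruits the deadenylase complex, read 13.16, 13.26 and 13.24 in shRNA samples on 1423176_at, against 13.13, 13.02 and 13.11 in controls. The groups lay side by side without overlap, and the increase was 0.13 (SE 0.041, 1.10-fold, limma adjusted p = 0.0152). Leaving out 1 array ended this call for shRNA array 2 (0.11, limma adjusted p = 0.0777) and control 2 (0.099, 0.0751), as did the fits with the arrays centred (0.070, 0.174) and without a variance trend (0.13, 0.0809). Its other probe set, 1440844_at, leaned the other way, at 9.25, 9.56 and 9.47 in shRNA samples against 9.55, 9.61 and 9.60 in controls (-0.16, SE 0.080, limma adjusted p = 0.109). That difference was called lower when shRNA array 2 was left out (-0.23, limma adjusted p = 0.0422), with the arrays centred (-0.22, 0.0355) and with quantile normalization (-0.23, 0.0312). The 2 probe sets of Tob1 therefore gave no common direction.

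Whether probe sets of 1 gene changed by different amounts was tested on the within-array difference between each other probe set and the brightest one, in 1 limma fit over all 10575 such pairs, of which 23.3% passed. Of 12 member pairs 2 passed. Btg1 1442018_at changed by 0.41 more than the brightest (SE 0.11, limma adjusted p = 0.0314), and Tob2 1417310_at by 0.22 more than 1448666_s_at (SE 0.063, limma adjusted p = 0.0356). The Tob1 pair differed by -0.29 (SE 0.092, limma adjusted p = 0.0535) and the Btg2 pair by 0.18 (SE 0.068, limma adjusted p = 0.0943). These calls were not stable. With an array left out, the Tob2 pair passed only without control 1, where the Btg2 pair passed as well (0.25, limma adjusted p = 0.0281), and the Btg1 pair passed only without shRNA array 3. Without a variance trend the Tob1 pair passed (limma adjusted p = 0.0335) and the Tob2 pair did not (0.0532). Leaving out any other array (shRNA array 1 or 2, control 2 or 3) left 0 of the 12 member pairs past limma's threshold, with 4 to 5 at an unadjusted p under 0.05.

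**Figure D3:**
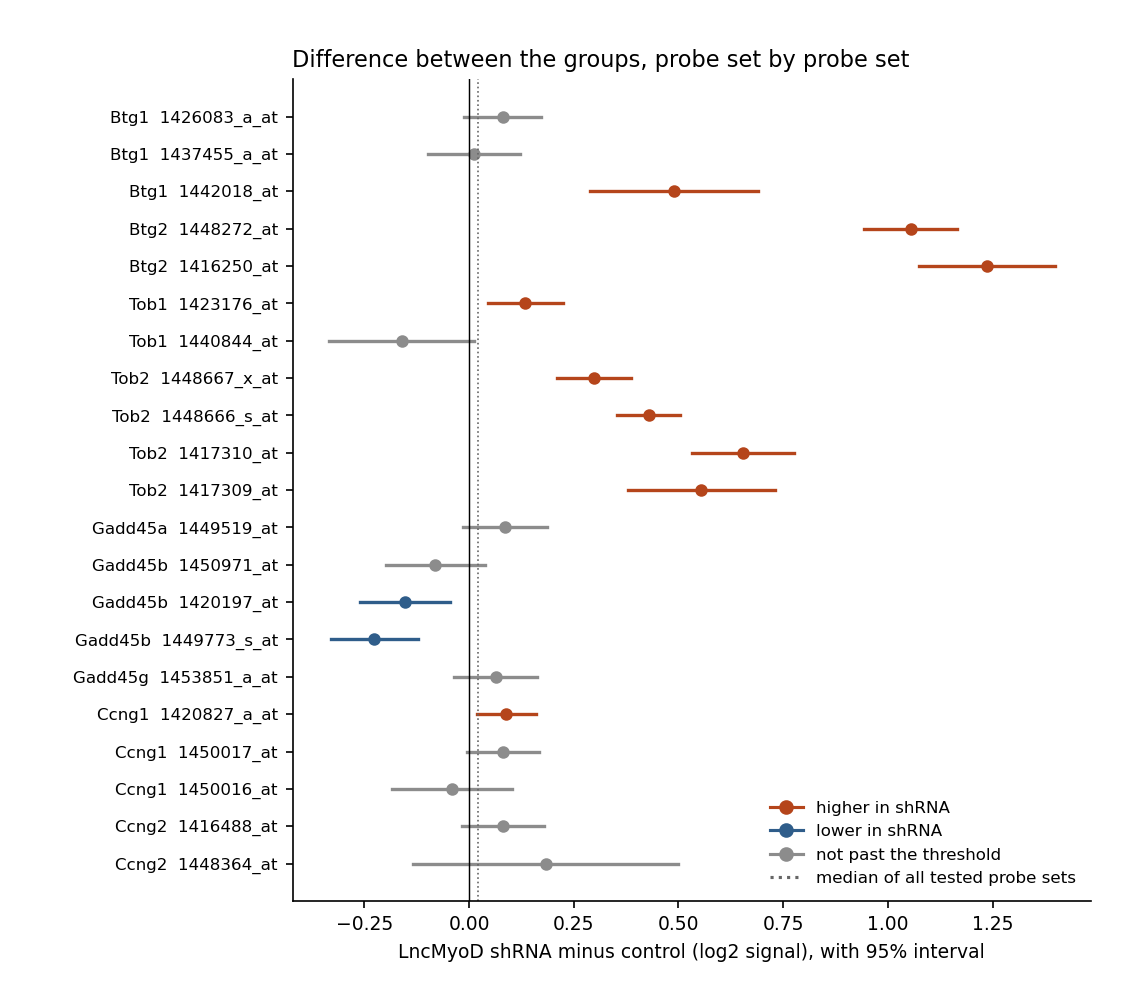
Difference in log2 signal, LncMyoD shRNA minus control, for the 21 tested member probe sets, with limma's 95% interval; the dotted line is the median of all tested probe sets, 0.021. Btg2 and Tob2 lie to the right on every probe set shown, Gadd45b to the left, and the other genes near 0 on their bright probe sets.

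Gadd45b, a stress protein induced by NF-kB and TGF-beta, was the only member gene with probe sets called lower in shRNA samples. Probe set 1449773_s_at read 11.40, 11.47 and 11.49 in shRNA samples, against 11.76, 11.64 and 11.63 in controls, and fell by 0.23 on the log2 scale (-0.23, SE 0.048, 1.17-fold, limma adjusted p = 0.00139). It kept this call in all 13 alternatives that tested it. On 1420197_at the values were 11.57, 11.64 and 11.72 in shRNA samples, against 11.85, 11.82 and 11.72 in controls, so the highest shRNA array lay just under the lowest control array. That difference, -0.15 (SE 0.050, limma adjusted p = 0.0203), lost its call without shRNA array 1 (-0.11, limma adjusted p = 0.0946) or 2 (-0.15, 0.0542), without control 1 (-0.13, 0.0594) or 2 (-0.14, 0.0660), or without a variance trend (-0.15, 0.0737). The brightest, 1450971_at, read 12.30, 12.41 and 12.38, against 12.58, 12.40 and 12.36, with overlap (-0.080, 95% interval -0.20 to 0.038, limma adjusted p = 0.236), and was called lower with the arrays centred (-0.14, limma adjusted p = 0.0202).

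Gadd45a, the founding member and a p53 target, read 13.33, 13.38 and 13.38 in shRNA samples on its 1 probe set, 1449519_at, against 13.39, 13.24 and 13.20 in controls. Control 1 alone reached the shRNA values. The difference was 0.086 (95% interval -0.014 to 0.19, limma adjusted p = 0.134), and it passed the threshold without control 1 (0.14, limma adjusted p = 0.00511) and with quantile normalization (0.096, 0.0316). Gadd45g, induced by cytokines and in differentiating cells, read 13.022, 12.996 and 13.027 in shRNA samples on 1453851_a_at, against 13.029, 12.982 and 12.841 in controls. The groups overlapped, and the interval of the difference, -0.035 to 0.16, leaves room for an increase of up to that size (0.064, limma adjusted p = 0.257).

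Ccng1, cyclin G1, a p53 target that binds PP2A and the kinase Gak, read 13.96, 14.01 and 14.01 in shRNA samples on 1420827_a_at, against 13.92, 13.87 and 13.93 in controls. The groups did not overlap, and the difference was 0.089 (SE 0.033, 1.06-fold, limma adjusted p = 0.0351). The call was lost in 7 of the 13 alternatives that tested it. These were the fits without shRNA array 2 (0.082, limma adjusted p = 0.133) or 3 (0.081, 0.105), without control 2 (0.070, 0.133), with the arrays centred (0.025, 0.557) or scaled on spike-ins (0.079, 0.106), without a variance trend (0.089, 0.146) and with the replicate block (0.089, 0.103). Its probe set 1450017_at read 12.23, 12.28 and 12.21 in shRNA samples against 12.20, 12.13 and 12.14 in controls (0.081, limma adjusted p = 0.0993), without overlap. The third, 1450016_at, read 10.998, 11.142 and 10.949 in shRNA samples against 11.197, 11.055 and 10.960 in controls, with overlap (-0.041, limma adjusted p = 0.629).

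Ccng2, cyclin G2, which marks cells leaving the cycle, read 11.60, 11.67 and 11.70 in shRNA samples on 1416488_at, against 11.64, 11.55 and 11.55 in controls. Control 1 lay within the shRNA values, and the difference was 0.080 (95% interval -0.017 to 0.18, limma adjusted p = 0.153). On the dim 1448364_at the shRNA samples read 7.505, 7.494 and 7.348, and the controls spread more widely, at 7.614, 7.215 and 6.968. That difference, 0.18 (SE 0.15, limma adjusted p = 0.316), became 0.36 without control 1 (limma adjusted p = 0.0245).

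**Figure D4:**
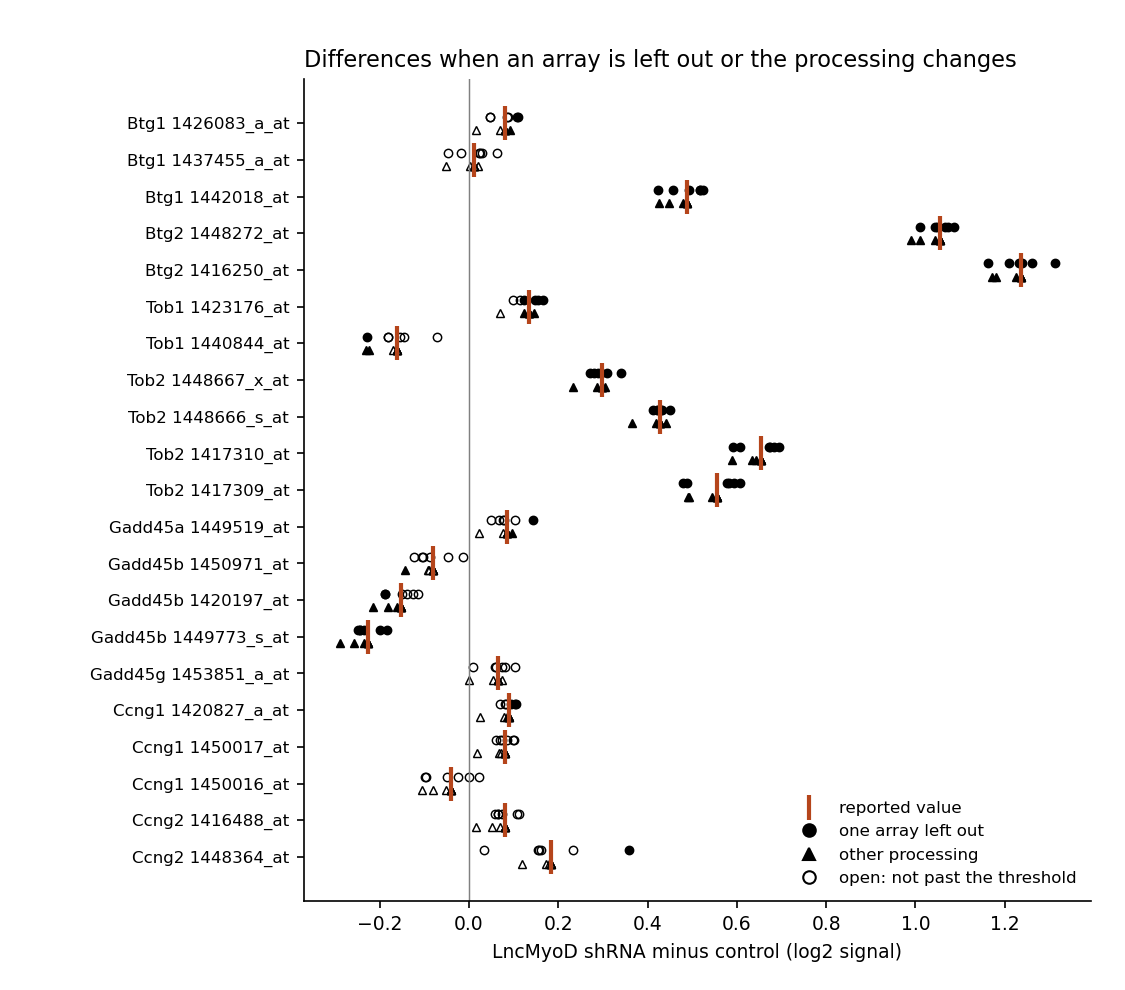
Difference in log2 signal, LncMyoD shRNA minus control, for each tested member probe set as reported (bars), with 1 array left out (circles) and under other processing (triangles); filled symbols passed the adjusted p of 0.05 and open ones did not. Btg2, Tob2, Btg1 1442018_at and Gadd45b 1449773_s_at are filled throughout, and the small differences of Tob1, Ccng1 and Gadd45b 1420197_at are not.

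The partners through which these proteins act were described by their brightest probe sets, beside all 12408 genes, of which 35.7% were higher, 22.8% lower and 58.5% called in either direction, with a median of 0.046. Of 15 tested genes of the CCR4-NOT complex and its poly(A) partners 4 were higher, 4 lower and 7 not past the threshold, with a median of -0.017. The deadenylase Cnot6 fell by 0.74 (SE 0.042, limma adjusted p = 1.66e-08), at 11.48 ± 0.039 in shRNA samples and 12.23 ± 0.044 in controls (SD, n = 3 each), and 2 of its 3 other tested probe sets had the same call. Pabpc4, a poly(A)-binding protein, fell by 0.90 (SE 0.045, limma adjusted p = 7.08e-09). Cnot11, a CCR4-NOT subunit, rose by 0.50 (SE 0.042, limma adjusted p = 5.34e-07). Cnot7, the deadenylase that Btg and Tob proteins bind directly, stood at 13.07 ± 0.036 in shRNA samples and 13.12 ± 0.047 in controls (limma adjusted p = 0.286).

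Of 23 other binding partners 9 were higher, 7 lower and 7 not past the threshold, with a median of 0.091. Pcna, the replication clamp that Gadd45 proteins bind, rose by 0.46 (SE 0.040) and Cdk1, a mitotic kinase that they inhibit, by 0.58 (SE 0.062). Mapk14, the p38 kinase downstream of Gadd45 and Map3k4, fell by 0.43 (SE 0.040, limma adjusted p = 1.30e-06), at 11.51 ± 0.024 in shRNA samples and 11.95 ± 0.032 in controls (SD, n = 3 each). Of its 3 other tested probe sets 1 had the same call.

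Genes that share upstream regulators with the members were also listed, in lists chosen with earlier results of these data known. Of 34 tested genes listed as p53 targets outside these families 26 were higher (76.5%) and 1 was lower, against 35.7% and 22.8% of all genes. Their median was 0.40, against 0.046 over all genes. The 26 include the G1 cyclin Ccnd1 (0.87, SE 0.057), which is not a standard target induced by p53. Psrc1 rose by 1.48 (SE 0.041), Apaf1 by 1.01 (SE 0.047) and the repair nuclease Ercc5 by 0.99 (SE 0.051), against the differences of 1.05 for Btg2, 0.089 for Ccng1 and 0.086 for Gadd45a. The 1 that fell was Pmaip1, a BH3-only protein (-0.32, SE 0.067), named after its value was seen. Cdkn1a, the best known p53 target, had a mean of 14.18 in shRNA samples and the same in controls (limma adjusted p = 0.995). The probe sets of Cdkn1a, Ccng1 and Gadd45a used here all had mean log2 signals above 13. Over all tested probe sets above 13 the median size of the difference was 0.072, against 0.22 at 13 or below. Whether such bright probe sets understate a difference was not tested. Of 25 immediate-early genes, the class to which Btg2 also belongs, 17 were higher (68%), 2 lower and 6 not past the threshold, with a median of 0.54. The nuclear receptors Nr4a1 and Nr4a3 rose by 2.21 (SE 0.069) and 1.94 (SE 0.078) and the zinc finger factor Egr1 by 0.83 (SE 0.035). The 1 other tested probe set of Nr4a3 did not share its call.

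Of 24 FoxO-responsive genes 12 were higher, 5 lower and 7 not past the threshold, with a median of 0.10. Irs2, an insulin receptor adaptor, rose by 1.45 (SE 0.11), whereas the ubiquitin ligase Trim63 fell by 1.35 (SE 0.099) and Tsc22d3, a glucocorticoid-induced repressor, by 0.81 (SE 0.052). Ccng2 stood at 0.080 and Btg1 at 0.080 on their brightest probe sets.

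**Figure D5:**
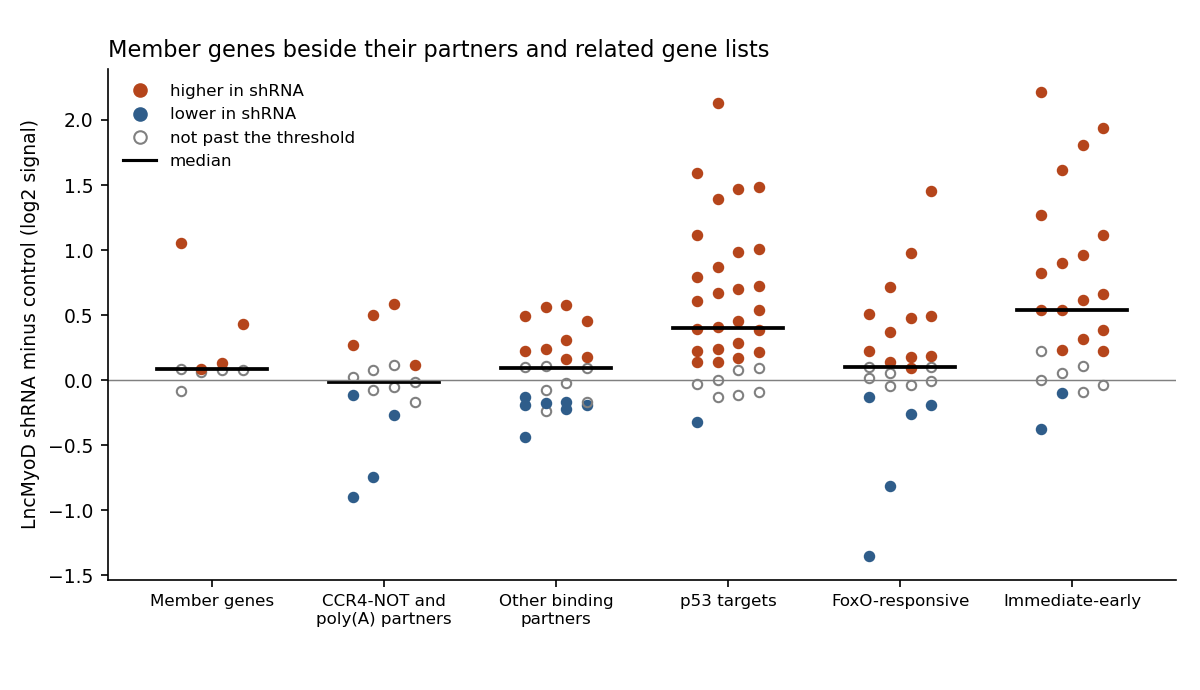
Difference in log2 signal, LncMyoD shRNA minus control, of each tested gene's brightest probe set for the member genes and 5 related lists; filled points passed the adjusted p of 0.05 (above 0 higher, below 0 lower in shRNA), open points did not, and bars are medians. The p53 target and immediate-early lists have medians of 0.40 and 0.54, and the other lists lie between -0.017 and 0.10.

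Over all probe sets, which are not independent, Pearson correlations were 0.987 to 0.990 between an shRNA and a control array, and 0.996 to 0.997 within a group. Muscle markers were bright, with a log2 of summed signals of 16.89 to 16.93 in shRNA samples and 16.88 to 16.95 in controls. The brightest genes weigh most in such a sum, and single genes moved in both directions. Of 11 genes 3 were higher, namely the satellite cell factor Pax7 (0.66), the myogenic factor Myf5 (0.62) and the muscle cadherin Cdh15 (0.40). The 3 that were lower were the creatine kinase Ckm (-1.41, SE 0.061), the differentiation factor Myog (-0.13) and the skeletal actin Acta1 (-0.088). The troponin Tnnt2 did not pass on its brightest probe set (-0.023), but its 2 other tested probe sets were called lower. Fibroblast markers summed to 11.10 to 11.17 in shRNA samples and 11.47 to 11.65 in controls. Of their 10 genes 5 passed the filter, of which 1, Pdgfra (0.89), was higher and 3, Dpep1 (-0.87), Col3a1 (-0.51) and Col1a1 (-0.42), were lower, and Thy1, Dpt, Dcn, Lum and Pi16 were dimmer than the filter. Leukocyte markers summed to 9.76 to 9.91 and 9.82 to 9.93 in shRNA and control samples and endothelial markers to 9.84 to 10.01 and 9.90 to 10.07, with 6 and 2 of 10 genes bright enough to test, of which Cd68 (0.33) was higher. Cd68 averaged 6.73 in shRNA samples and 6.40 in controls, the second of which is below the lowest tested mean of 6.50. Its call was lost when any array but control 1 was left out and with spike-in scaling, and the stricter filter removed it. Limma's test called 0 of the 2 endothelial genes, also at an unadjusted p under 0.05. In total RNA of a culture, fewer cells of a type and less RNA per cell cannot be told apart. RNA integrity was read from control probe sets at both ends of a transcript. The log2 of the 3' signal over the 5' signal was 0.55 ± 0.017 in shRNA samples and 0.51 ± 0.018 in controls for actin, and 0.23 ± 0.038 and 0.14 ± 0.045 for GAPDH (SD, n = 3 each, two-sided exact permutation p = 0.1 for each, which is the lowest p that this design of 20 assignments can reach). The part of the muscle and fibroblast markers and of this ratio in the members' differences was not tested. No probe set was matched to LncMyoD, so the knockdown is not analysed here.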

How the data were processed

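Total RNA of 6 samples was measured on Affymetrix Mouse Genome 430 2.0 arrays. The deposited values are log2 signals, 1 for each probe set on an array, as their range of 4.48 to 14.6 shows. Control array 1 had a median of 7.23, and how the arrays were scaled to each other before deposit is not known here. Per the submitters' processing notes PLIER and MAS5 were used, with no role or version. Detection calls were not used here. Array numbers, 3 per group, limit the precision, and p-values measure the spread between arrays that the labels call biological replicates, without naming separate animals or cultures. Of the value columns, 0 lacked a sample.

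Gene symbols came from the platform annotation at GEO: 34958 had 1 symbol, 932 several and 9211 none, being unnamed here. The 64 Affymetrix control probe sets and the dimmest 40% by mean over all arrays were left out, which kept 27022. Differences, shRNA minus control, were fitted with limma 3.58.1 in R 4.3.3 (lmFit, eBayes with a mean-variance trend), with Benjamini-Hochberg adjustment over all tested probe sets and a threshold of 0.05. A gene's brightest probe set stood for it in lists, _x_at only where there was no other. Intervals are limma's 95% intervals. The calculation was tested on simulated data, where 59% of added log2 changes of 0.5 and 92% of those of 1 were recovered. Smaller changes were not simulated, and far fewer probe sets were changed than were called here. The named genes are all members, the 3 genes with the smallest p in each list (fewer where fewer passed) and the 3 profiles closest to the member with the largest change. Cnot7, Cdkn1a, Pmaip1, Ccnd1, Myf5, Myog, Acta1, Tnnt2 and Col1a1 were added after their values were seen. The members and lists were chosen with earlier results of these data known. Alternatives changed the filter, the scaling, the variance model, the probe sets and the arrays used. Promoter windows were found for 10 of 10 genes.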

Additional observations from a re-analysis of the deposited data

How the results depend on the processing

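Over 14 alternatives no called difference of a member probe set changed its sign. With the arrays centred on their medians, 45% of all called probe sets were higher, against 56.4% as reported (8214 higher, 6352 lower), and the median difference over all tested probe sets was -0.043, against 0.021. Member probe sets called higher, 9 as reported, numbered 7 to 12 with an array left out (12 without control 1). They numbered 7 with the arrays centred, 11 with quantile normalization, 8 with spike-in scaling and 7 without a variance trend. Without probe sets ending in _x_at, _s_at or _a_at, 6 of 14 member probe sets were called higher. Those called lower, 2 as reported, numbered 4 with the arrays centred, 3 with quantile normalization, 1 without a variance trend, 1 without those probe sets, and 1 to 2 with an array left out. The same exclusion gave 10 called genes among the other binding partners, against 16 of 23 as reported. It also removed genes whose only probe sets have such endings, so fewer genes were tested and the counts are not like for like. The replicate numbers did not pair the arrays (correlations of same-numbered deviations of -0.13, -0.061 and 0.031). With the replicate number as a block, 8 member probe sets were higher and 2 lower, Ccng1 being the lost call, and 0 of 12 pairs of probe sets passed limma's threshold, with 6 at an unadjusted p under 0.05 (2 pairs passed as reported, and 0 to 2 with an array left out). The causes were not tested. Tob2 1431776_at lay below the filter on low signals, and since no detection call was used, how far dim signals stand above background is not known here.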

Other observations

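Bright signals made up a larger share of the member probe sets than of the array. Of the 21 tested member probe sets 7 (33.3%) had a mean log2 signal above 13, against 5.63% of all tested, a level chosen after the values were seen. These were both bright Btg1 probe sets, Tob1 1423176_at, Tob2 1448667_x_at and 1448666_s_at, Gadd45a and Ccng1 1420827_a_at. The median size of the difference among them was 0.089, and 4 were called. Over all 1522 tested probe sets above 13 it was 0.072 with 40.6% called, and over the 25500 at 13 or below it was 0.22 with 54.7% called. The 14 dimmer member probe sets had a median size of 0.17, and 5 were higher and 2 lower. Whether bright probe sets understate a difference was not tested.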
